A study of Mus musculus with 16 samples.

Results

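The AMPA receptor genes followed here are the 4 pore-forming subunits Gria1, Gria2, Gria3 and Gria4, the transmembrane AMPA receptor regulatory proteins (TARPs) Cacng2, Cacng3 and Cacng8, and the cornichon homologues Cnih2 and Cnih3. They were chosen by name, and each symbol was matched to 1 Ensembl identifier in the expression table, which gave 9 of the 18424 genes listed. The study asked how early exposure to fluoxetine, a selective serotonin reuptake inhibitor, acts on the adult brain of mice lacking 1 working copy of Arid1b, a gene for a component of the SWI/SNF complex that repositions nucleosomes. RNA was taken from the medial prefrontal cortex of 16 male C57BL/6N mice at postnatal day 120, and each mouse gave 1 library.

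Heterozygous mice (HT) carried, in all their cells, a germline CRISPR/Cas9 mutation in exon 5 of 1 Arid1b allele that truncates the protein, and wild-type mice (WT) did not. From postnatal day 3 to 21 their dams drank saccharin water (0.2%) alone (vehicle, Veh) or with fluoxetine hydrochloride at 0.1 mg/ml (Flx), and pups were exposed through milk. After weaning all mice drank plain water, so the adults had been without drug since postnatal day 21. The 4 groups, WT-Veh, HT-Veh, WT-Flx and HT-Flx, held 4 mice each. The labels do not say which mice shared a litter or dam, so the p-values below measure the spread between individual mice. Because the dams took the drug, mice of 1 dam are not independent for fluoxetine. The p-values that involve fluoxetine could therefore be too small.

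AMPA receptors are tetramers of these subunits that open on binding glutamate and carry most fast excitatory transmission between cortical neurons. The Gria2 subunit sets whether the channel passes calcium. TARPs and cornichons join the pore-forming subunits, help to bring them to the surface and synapse, and slow the closing of the channel.

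A short coding stretch shows how alike the subunits are where they differ most in function. The 48 bases below encode the pore loop around the glutamine/arginine (Q/R) site, with the glutamine codon in capitals (GRCm38 reference, 5′ to 3′ on the coding strand). In Gria2 RNA the adenosine of this codon is normally edited by the enzyme encoded by Adarb1, which changes the amino acid and keeps calcium out.

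Gria1: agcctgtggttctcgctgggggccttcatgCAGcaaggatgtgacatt
Gria2: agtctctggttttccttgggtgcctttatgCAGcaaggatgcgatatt
Gria3: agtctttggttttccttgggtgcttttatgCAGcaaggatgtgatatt
Gria4: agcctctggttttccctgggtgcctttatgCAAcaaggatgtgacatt

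These stretches lie at chr11:57243064-57243111 (plus strand), chr3:80706896-80706943 (minus), chrX:41610235-41610282 (plus) and chr9:4464122-4464169 (minus), in exon 11 of 16 for Gria1, Gria2 and Gria3 and exon 12 of 17 for Gria4. Gria2 and Gria3 shared 45 of the 48 bases, more than any other pair, and Gria1 shared 39 with either of them. The deposited values are summed over each gene, so they carry no measure of editing or of splice forms.

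The ends of the coding sequences are shown because they encode the tails through which the scaffold proteins discussed further on hold the receptor. The last 30 coding bases before the stop codon are given, with the codons of the last 4 residues in capitals (GRCm38).

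Gria1: tcagggatgcccttgggaGCCACAGGATTG
Gria2: aacgtatatggcatcgagAGTGTTAAAATT
Gria3: aacgtgtatggaacagaaAGTGTTAAGATC
Cacng2: aacacagccaaccgccggACCACGCCCGTA
Cacng3: aatccggccaacagacgtACCACGCCTGTC
Cacng8: aacacgctcaacaggaaaACCACGCCCGTG

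They lie at chr11:57327614-57327643, chr3:80689109-80689138, chrX:41672432-41672461, chr15:77995152-77995181, chr7:122768814-122768843 and chr7:3415573-3415602. Gria2 and Gria3 encode the same last 4 residues, the motif bound by the scaffolds Grip1 and Pick1, and Gria1 a different one. The 3 TARPs encode 1 shared ending, which binds the postsynaptic scaffold PSD-95 (Dlg4), although the third bases of the codons differ.

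Before the members, the samples themselves need a description. The total of all normalized read counts was 26718800 to 29902400 per mouse. The depth in reads is unknown, because the deposited values were already normalized. Arid1b had 2368 ± 432 (SD, n = 4) in WT-Veh and 1795 ± 160 in HT-Veh, and 2159 ± 233 in WT-Flx and 1636 ± 61.0 in HT-Flx. Markers of cortical glutamatergic neurons were detected in every mouse, from Emx1 (267 to 627) to Slc17a7, the vesicular glutamate transporter (32162 to 43463). The mean log2(normalized count + 1) of these markers was lowest in WT-Veh replicate 1 (11.35) and WT-Flx replicate 4 (11.41). It was highest in HT-Flx replicate 2 (11.89). Markers of the olfactory bulb, which adjoins this cortex, differed between mice. The score of 10 such markers, the mean of log2(normalized count + 1), was 3.50 to 4.60 in 11 mice and above 5 in the others, namely HT-Veh replicate 4 (7.16), WT-Veh replicate 1 (9.02) and, of the WT-Flx mice, replicates 1 (6.87), 2 (7.21) and 4 (8.52). Summed over the 10 markers, counts were 281 to 10520 in WT-Veh, 302 to 3061 in HT-Veh, 437 to 7964 in WT-Flx and 250 to 394 in HT-Flx, and only Eomes and Barhl2 were listed at 0 in any mouse. A further measure was the median deviation of genes with transcripts of at least 8000 bases (735 genes, Gria2 among them) minus that of genes with transcripts of at most 2000 bases (2892 genes, Cnih2 and Cacng8 among them). It was -0.66 in both WT-Veh replicate 1 and WT-Flx replicate 1, -0.16 in WT-Flx replicate 4, -0.063 in HT-Veh replicate 4 and 0.050 to 0.21 in the remaining mice.

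All 9 members were well detected. Their mean normalized counts over the 16 mice ran from 992 ± 110 for Cacng8, higher than 69.3% of all genes, to 20145 ± 2992 for Gria2, higher than 99.3%. To compare genes with one another, counts were divided by the length of the principal transcript. On this per-kilobase scale Cnih2 stood first (2816 ± 357, n = 16), followed by Gria2 (1942 ± 289), Gria3 (1787 ± 176), Gria1 (1688 ± 159), Cacng3 (1323 ± 149), Gria4 (626 ± 41.7), Cnih3 (610 ± 88.5), Cacng8 (523 ± 57.8) and Cacng2 (475 ± 48.9). Cnih2 exceeded Gria2, Gria1 exceeded Cacng3 and Cacng3 exceeded Gria4 in all 16 mice. The other neighbours in this order overlapped: Gria3 exceeded Gria1 in 11 of 16 mice, Gria4 exceeded Cnih3 in 12 and Cacng8 exceeded Cacng2 in 11. The order also depends on the length used. With coding length alone, Cnih2 and Gria2 stayed first, but Gria1 moved from rank 4 to rank 6 and Cacng8 to the last place. With the combined length of all annotated exons of the gene, Cnih2 was again first, but Gria1 (1508) and Cacng3 (1323) came next and Gria2 (1296) was at rank 4.

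Among the pore-forming subunits, Gria2, Gria3 and Gria1 had like shares per kilobase of principal transcript (32.0% ± 3.2, 29.5% ± 1.6 and 28.1% ± 3.4 of the 4 subunits, n = 16), and Gria4 had 10.4% ± 1.1. Per kilobase of coding sequence, the share of Gria2 was 48.3% ± 3.8, and per kilobase of all exons Gria1 stood above it, so whether Gria2 leads rests on which length is taken. The Gria2 share was lowest in WT-Flx replicate 1 (24.0%) and WT-Veh replicate 1 (25.6%) and 29.1% to 34.9% in the other 14 mice. In HT-Flx it varied little, from 32.0% to 34.1%.

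**Figure D1:**
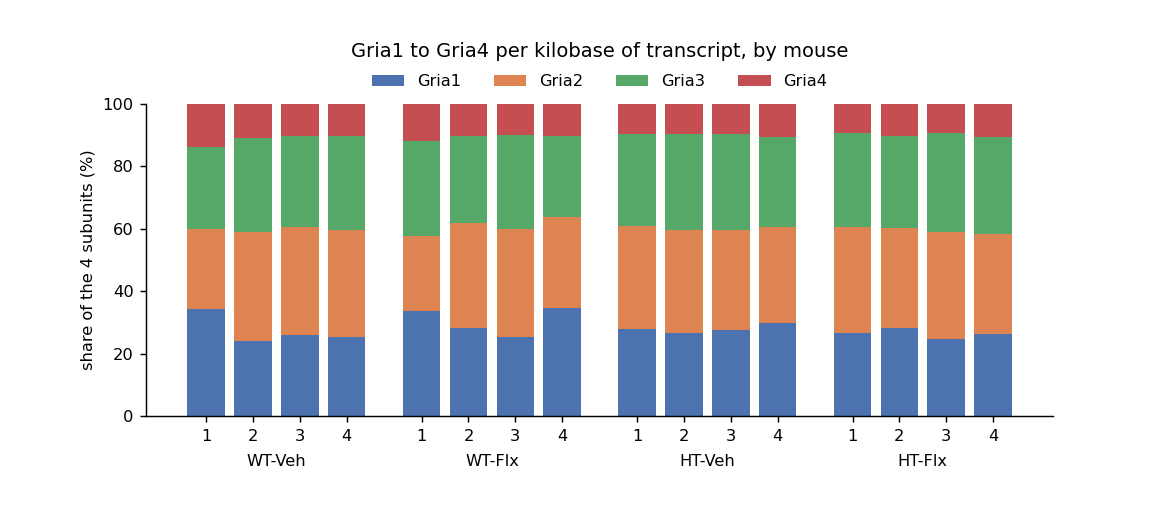
Share of each subunit (y axis, % of the sum of Gria1, Gria2, Gria3 and Gria4 per kilobase of principal transcript) in each of the 16 mice (x axis, replicate numbers by group). The orange Gria2 segment is shortest in replicate 1 of WT-Veh and of WT-Flx, at 25.6% and 24.0%.

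Gria1 encodes the subunit best known for joining synapses during plasticity. Its normalized counts were 9420, 7779, 8319 and 8462 in the WT-Veh mice (replicates 1 to 4) and 9507, 9317, 9223 and 9390 in the HT-Veh mice. Fluoxetine-exposed mice had 9311, 9946, 8464 and 11241 (WT-Flx) and 8511, 9750, 7952 and 9197 (HT-Flx). The HT-Veh mice were tightly grouped. Of the WT-Veh mice only replicate 1, which had the highest bulb score of all mice, reached into their range. The highest single value was that of WT-Flx replicate 4, which had the next highest bulb score.

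Gria2 had counts of 13513, 21631, 21074 and 21925 in WT-Veh and 21687, 22135, 20788 and 18646 in HT-Veh. With fluoxetine they were 12770, 22842, 22449 and 18199 in WT mice and 20917, 21174, 21081 and 21489 in HT mice. Replicate 1 of both WT groups was far below the rest. Without them, all mice lay within 18199 to 22842, and every group overlapped with every other. The SD was 4031 in WT-Veh and 4694 in WT-Flx but 241 in HT-Flx, so intervals on any Gria2 difference that involves a WT group are wide.

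Gria3, which is X-linked and pairs with Gria2 in many cortical receptors, had counts of 6879, 9321, 9002 and 9658 in WT-Veh and 8189, 9451, 9705 and 8141 in WT-Flx. HT mice had 9659, 10354, 9989 and 8813 with vehicle and 9252, 9781, 9812 and 10438 with fluoxetine. The lowest 3 values were all from WT mice with high bulb scores, and the lowest HT value, in HT-Veh replicate 4, was also from a mouse with a high bulb score. Gria4, whose product is prominent in interneurons, varied least of the 9 genes over all mice (CV 6.67%), with a lowest value of 2970 (HT-Flx replicate 1) and a highest of 3785 (WT-Veh replicate 1). Its group means were 3482 ± 232 (WT-Veh), 3258 ± 70.3 (HT-Veh), 3360 ± 147 (WT-Flx) and 3292 ± 360 (HT-Flx).

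Cacng2 encodes stargazin, the founding TARP, whose loss causes the stargazer phenotype. Its counts were 2129, 2835, 3024 and 2944 in WT-Veh and 2544, 2280, 2645 and 2304 in WT-Flx. Those of HT mice were 2351, 2602, 2766 and 2363 with vehicle and 2601, 2828, 2887 and 2812 with fluoxetine. In WT-Veh, replicate 1 stood below the other 3, which were above every WT-Flx mouse. In HT mice the order of the means was the opposite, with HT-Flx above HT-Veh, though the groups overlapped.

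Cacng3, a cortical TARP, had its lowest count in WT-Veh replicate 1 (2719) and its highest in HT-Veh replicate 3 (4382), with group means of 3444 ± 519 (WT-Veh), 3790 ± 585 (HT-Veh), 3592 ± 282 (WT-Flx) and 3865 ± 134 (HT-Flx). The TARP Cacng8, best known from hippocampus, had counts of 1079, 888, 967 and 899 in WT-Veh and 1029, 1147, 1088 and 1072 in HT-Veh. After fluoxetine, WT mice had 1085, 864, 790 and 890 and HT mice 864, 1090, 1047 and 1073. Of the 8 HT mice, 7 were at 1029 or more, while 2 of the 8 WT mice were, and those were replicate 1 of each WT group.

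Cnih2 and Cnih3 encode cornichon homologues that bind Gria1-containing receptors in pyramidal neurons. Cnih2 counts were 4781, 3614, 3559 and 3249 in WT-Veh and 4754, 3285, 3419 and 3943 in WT-Flx, and HT mice had 3668, 3803, 3265 and 4235 (HT-Veh) and 3534, 3442, 4016 and 3939 (HT-Flx). Here replicate 1 of both WT groups was highest, the reverse of Gria2. Cnih3 was lowest in HT-Flx replicate 1 (1255) and highest in WT-Flx replicate 1 (2241), with group means of 1659 ± 105 (WT-Veh), 1570 ± 150 (HT-Veh), 1757 ± 324 (WT-Flx) and 1524 ± 313 (HT-Flx).

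**Figure D2:**
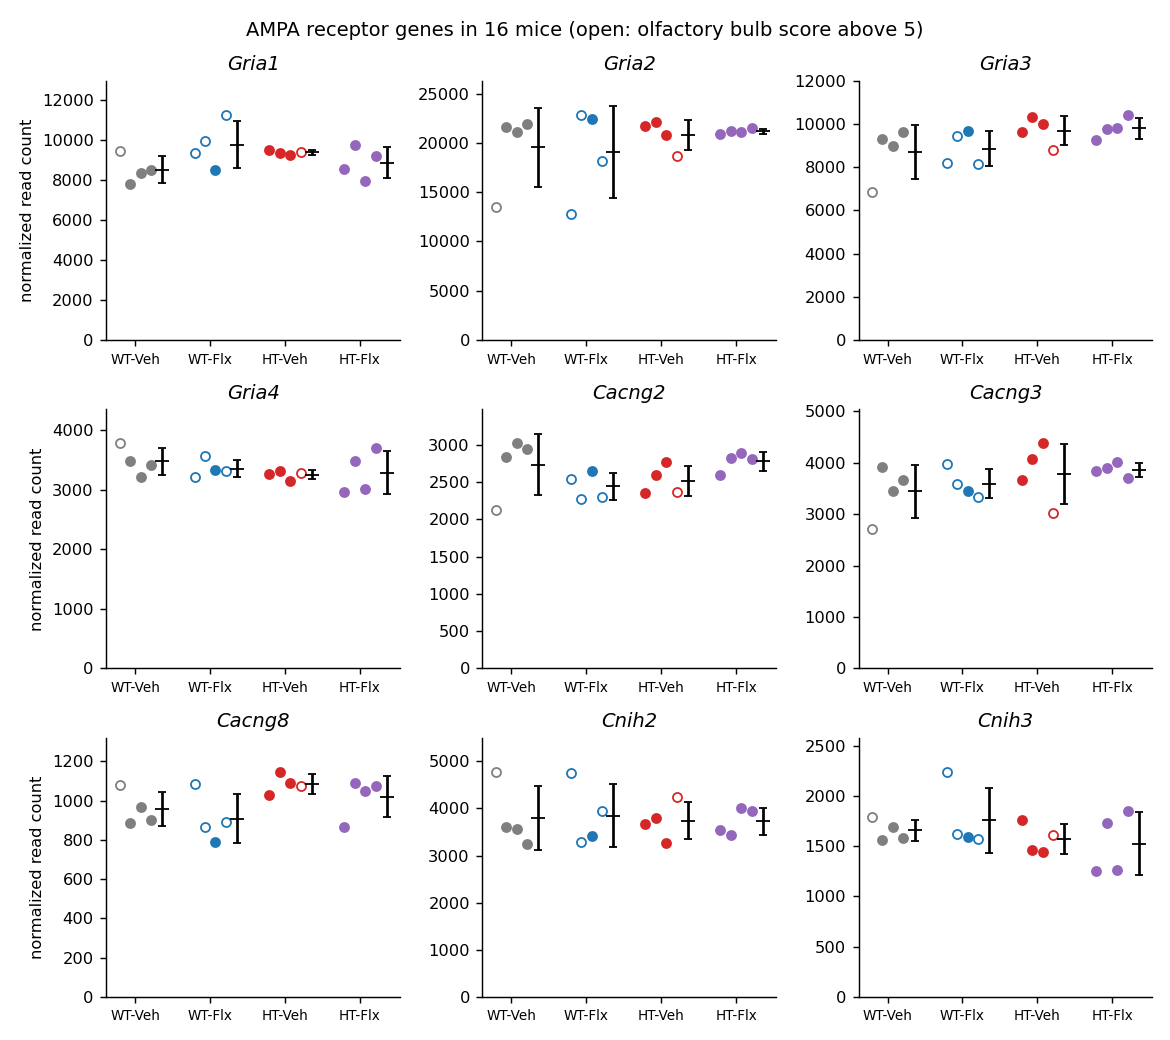
Normalized read count (y axis, from 0) of each of the 9 genes in the 4 mice of each group (points, replicates 1 to 4 from left to right), with the group mean and SD (black). Open points mark the 5 mice with an olfactory bulb score above 5; for Gria2 replicate 1 of WT-Veh (13513) and WT-Flx (12770) lie far below the rest, and for Cnih2 the same mice lie highest.

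To ask what loss of 1 Arid1b copy did without drug, HT-Veh was compared with WT-Veh. No AMPA receptor gene passed an adjusted p of 0.05 (limma on log2(count + 1), p-values adjusted by Benjamini and Hochberg over 16832 genes), where 0.0178% of all genes did. Cacng8 came nearest, with 1084 ± 48.9 in HT-Veh against 958 ± 87.7 in WT-Veh (13.1% higher, log2 difference 0.18, SE 0.081, unadjusted p = 0.0494 and adjusted p = 0.922 by limma). It was the only one of the 9 with an unadjusted p below 0.05, where 4.88% of all genes had one. Gria1 was 10.2% higher (log2 difference 0.14, 95% interval -0.0093 to 0.30) and Gria3 11.3% higher (0.16, interval -0.075 to 0.40). The Gria3 difference was 0.055 (SE 0.061) without WT-Veh replicate 1, which had its lowest count. No member had groups that did not overlap, against 3.84% of all genes. Of the 9 genes 5 were higher in HT-Veh, as were 51.8% of all genes, and their median log2 difference was 0.12, beside 0.0062 over all genes. That median was 0.029 without WT-Veh replicate 1 and 0.041 without the 2 mice of bulb score above 5. In exact permutation tests (two-sided, 4 against 4, smallest possible p 0.0286) the lowest p was 0.0857, for Cacng8.

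Because bulb markers differed between these mice, the same comparison was repeated without WT-Veh replicate 1 and HT-Veh replicate 4, leaving 3 mice a group. Striatal scores of the mice kept still differed, 8.92 to 9.86 in WT-Veh and 8.22 to 9.10 in HT-Veh. Gria1 was then 7779 to 8462 in WT-Veh and 9223 to 9507 in HT-Veh (log2 difference 0.19, SE 0.046, adjusted p = 0.167 by limma). Cacng8 was 888 to 967 against 1029 to 1147 (0.24, SE 0.070, adjusted p = 0.244). Cacng2 lay the other way, 2835 to 3024 in WT-Veh and 2351 to 2766 in HT-Veh (-0.19, SE 0.064, adjusted p = 0.316). With Gria3, whose ranges were separated by less than 1 count (log2 difference 0.10, SE 0.047), 4 of 9 members did not overlap, where 16.3% of all genes did not, and 3 of 9 had an unadjusted p below 0.05, where 10.9% of all genes did. None passed the adjusted threshold, where 0.0666% of all genes did. With the bulb score as a covariate instead, Gria1, Gria3 and Cacng8 had unadjusted p below 0.05 (10.7% of all genes did) and adjusted p of 0.244, 0.279 and 0.321 by limma, and 0.113% of all genes were called. In bulk tissue, fewer cells of a type and less RNA per cell cannot be told apart, here or in any comparison below.

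The comparison of HT-Flx with HT-Veh asks what early fluoxetine left behind in heterozygous adults. None of the 9 genes passed the adjusted threshold, nor did any other gene (limma, 16814 genes, 0% called). None had an unadjusted p below 0.05 either, where 3.07% of all genes did, and none had groups that did not overlap (1.99% of all genes). Cacng2 differed most, with 2520 ± 200 in HT-Veh and 2782 ± 125 in HT-Flx, 10.4% higher (log2 difference 0.14, SE 0.072, adjusted p = 1.00 by limma; exact permutation p = 0.0857). Gria2 was 20814 ± 1550 in HT-Veh and 21165 ± 241 in HT-Flx, with a 95% interval of the log2 difference from -0.12 to 0.18. Intervals of Gria1, Gria3 and Gria4 were as narrow, from -0.24 to 0.068, from -0.13 to 0.17 and from -0.16 to 0.18, while that of Cnih3 was widest, from -0.35 to 0.23. HT-Flx was the higher group for 5 of 9 members and for 51.2% of all genes, and the median log2 difference of the members was 0.0090, beside 0.0030 over all genes. HT-Veh replicate 4 was the only mouse of these groups with a bulb score above 5 (7.16). Without it the median was -0.027 for the members and 0.0011 for all genes, and Gria2, Gria3, Cacng3 and Cnih2 changed sign.

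In wild-type mice, WT-Flx against WT-Veh, again no member and no other gene passed the adjusted threshold (limma, 16833 genes, 0% called). No member reached an unadjusted p below 0.05, where 4.2% of all genes did, or had groups that did not overlap (2.89% of all genes). Gria1 was 14.7% higher with fluoxetine (9740 ± 1170 against 8495 ± 683; log2 difference 0.19, SE 0.10, unadjusted p = 0.0907 by limma; 0.12 without WT-Flx replicate 4), and Cacng2 was lower (2443 ± 180 against 2733 ± 410; -0.15, SE 0.12). Again 5 of 9 members, and 49.8% of all genes, were higher with fluoxetine, and the medians were 0.019 for the members and -0.00091 for all genes. Bulb scores differed here too, with 3 WT-Flx mice and 1 WT-Veh mouse above 5, and their part in these differences was not tested by leaving them out because only WT-Flx replicate 3 would remain. With the bulb score as a covariate the log2 differences were 0.10 (SE 0.077) for Gria1 and -0.034 (SE 0.079) for Cacng2. With the libraries low in long transcripts left out (replicate 1 of each group), the log2 differences were 0.26 for Gria1 (SE 0.098, adjusted p = 0.264 by limma) and -0.29 for Cacng2 (SE 0.076, adjusted p = 0.182).

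After fluoxetine, HT-Flx was compared with WT-Flx. No member was called (limma, 16788 genes, 0.0417% of all genes called), none had an unadjusted p below 0.05 although 10.4% of all genes did, and none had groups that did not overlap (5.83% of all genes). In HT-Flx 5 of 9 members were higher (51.6% of all genes), with a median log2 difference of 0.11 beside 0.0081 over all genes. Cacng2 came closest, with 2782 ± 125 in HT-Flx and 2443 ± 180 in WT-Flx (13.9% higher, log2 difference 0.19, SE 0.087, unadjusted p = 0.0501 by limma; exact permutation p = 0.0571). With the bulb score as a covariate this difference was 0.049 (SE 0.14). All 4 HT-Flx mice had bulb scores of 4.60 or lower and 3 of 4 WT-Flx mice were at 6.87 or higher, so in this comparison genotype and bulb markers were largely confounded. Gria1 was 8852 ± 785 in HT-Flx and 9740 ± 1170 in WT-Flx (log2 difference -0.13, SE 0.10; -0.063 without WT-Flx replicate 4), and took the opposite sign with the covariate (0.16, SE 0.14).

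With treatment as a covariate, all 8 HT mice were compared with all 8 WT mice. This comparison shares its mice with the preceding ones and is no separate evidence. No member passed the adjusted threshold (limma, 17567 genes, 0.0398% of all genes called), and 2 of 9 had an unadjusted p below 0.05, where 11.9% of all genes did. Cacng8 was 12.7% higher in HT mice (1051 ± 83.4 against 933 ± 104, n = 8 each; log2 difference 0.18, SE 0.071, p = 0.0234, adjusted p = 0.391 by limma; permutation p = 0.0302, exact, over 4900 arrangements within treatment). Gria3 was 11.0% higher (9762 ± 539 against 8793 ± 985; 0.16, SE 0.068, p = 0.0331, adjusted p = 0.401 by limma; permutation p = 0.0298, exact). In all, 6 of 9 members were higher in HT mice (51.1% of all genes), and the median log2 difference was 0.041 beside 0.0044 over all genes. Those 2 were among 45 tests of single members by permutation. The difference of Gria3 was 0.062 (SE 0.054) with the bulb score as a covariate and 0.084 (SE 0.052) without replicate 1 of both WT groups. That of Cacng8 was 0.22 (SE 0.075) and 0.25 (SE 0.060) in the same fits, larger than with all mice, and adjusted p was 0.585 and 0.231 by limma.

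Whether fluoxetine acted differently in the 2 genotypes was tested as an interaction, the HT-Flx minus HT-Veh difference less the WT-Flx minus WT-Veh difference. No member and no other gene passed (limma, 17567 genes, 0% called). Gria1 had the lowest p of the 9 (-0.28, SE 0.13, adjusted p = 0.998 by limma): it was higher with fluoxetine in WT mice (0.19) and lower in HT mice (-0.085), on the log2 scale. Cacng2 had the opposite arrangement (0.30, SE 0.14, adjusted p = 0.998 by limma). Gria1 was the only one of the 9 with an unadjusted p below 0.05, where 4.29% of all genes had one, and the term was above 0 for 3 of 9 members and 50.3% of all genes. With the bulb score as a covariate these terms were -0.16 (SE 0.10) for Gria1 and 0.13 (SE 0.10) for Cacng2, and without replicate 1 of both WT groups -0.35 (SE 0.12) and 0.43 (SE 0.11).

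**Figure D3:**
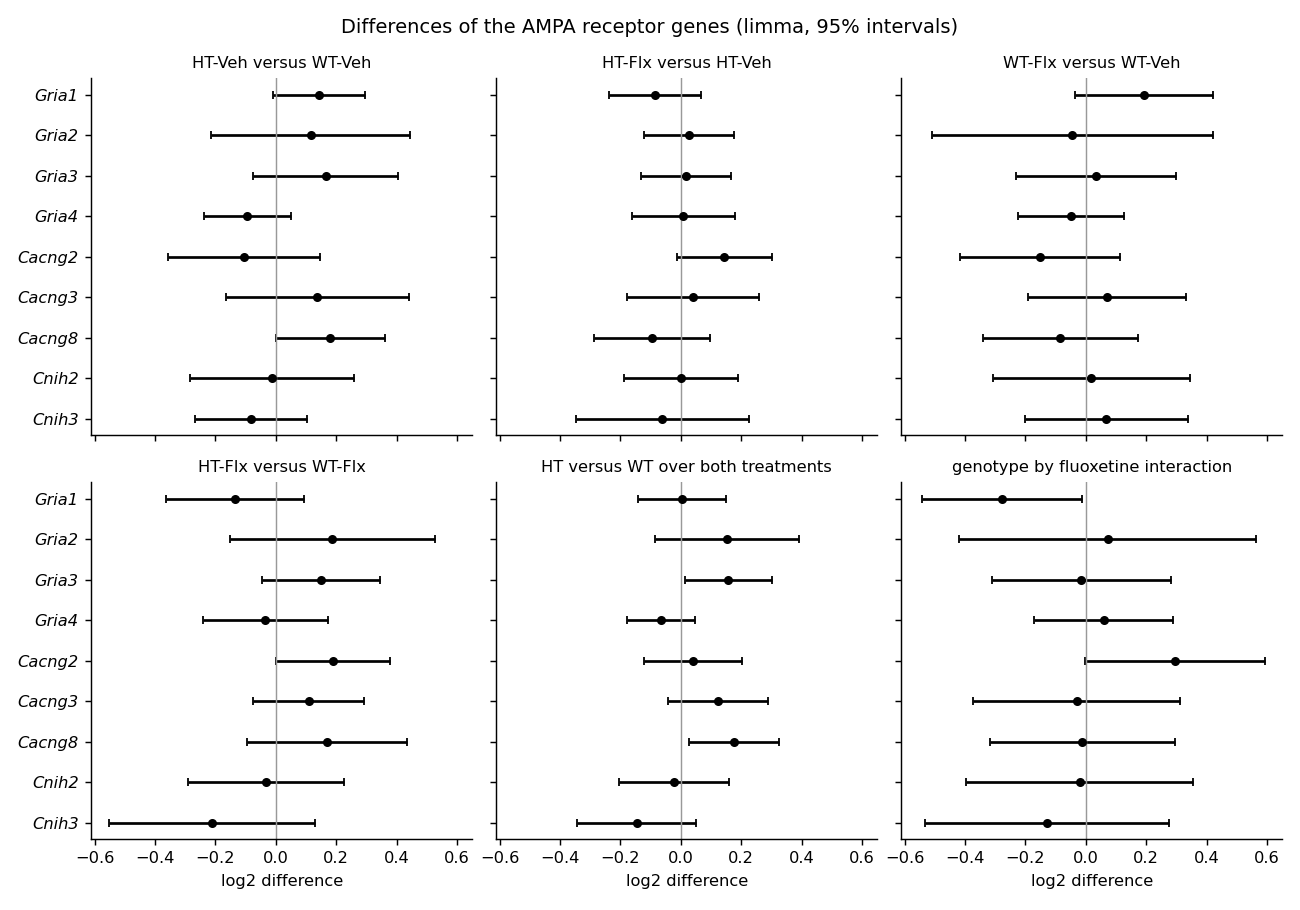
Log2 differences (x axis, log2(count + 1) scale) of the 9 genes (y axis) in the 6 comparisons, with 95% intervals from limma that are not adjusted for the number of genes. Intervals that miss 0 are those of Cacng8 in HT-Veh versus WT-Veh, of Gria3 and Cacng8 over both treatments and of Gria1 in the interaction, and none of these passed the adjusted threshold.

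Several members moved with the measures of the libraries described above. The points of each correlation are the 16 mice, which share groups and those library differences, so r is given as a description. Against the long minus short transcript measure, r was 0.98 for Gria2 and 0.87 for Gria3, and -0.85 for Cnih2 and -0.58 for Cnih3. Gria2 has the longest principal transcript of the 9 (10371 bases) and Cnih2 the shortest (1343 bases). Against the bulb score, r was -0.83 for Cacng2, -0.82 for Gria3, -0.72 for Cacng3 and -0.69 for Gria2, 0.68 for Gria1 and 0.013 for Cacng8. Against the score of GABAergic neuron markers, r was -0.92 for Gria3, -0.75 for Cacng3, -0.66 for Gria2 and 0.49 for Cnih2. That score was highest in WT-Veh replicate 1 (11.12) and WT-Flx replicate 4 (11.01), the mice with the highest bulb scores. Against the score of glutamatergic markers, r was 0.76 for Cacng2, 0.72 for Cacng3, 0.69 for Gria3 and -0.50 for Cnih2. The part of these measures in the values of single mice was not tested.

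**Figure D4:**
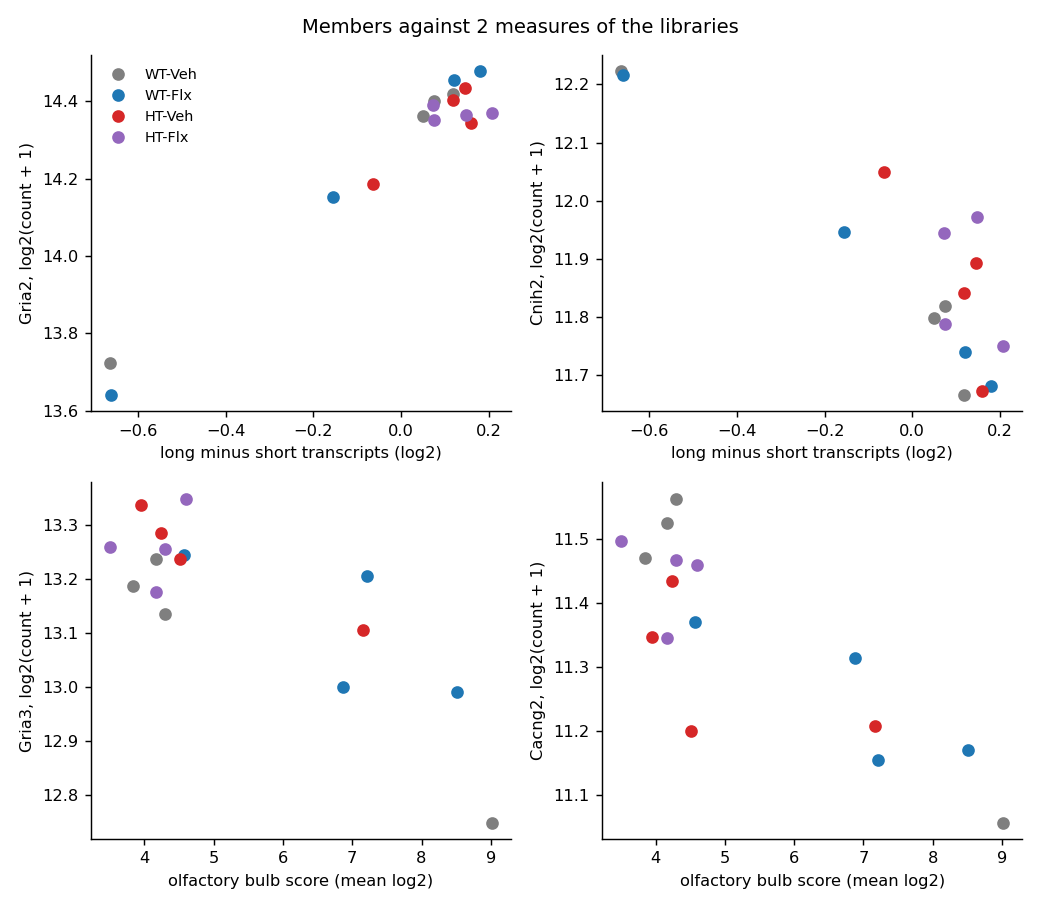
Gria2 and Cnih2 (top, y axes in log2(count + 1)) against the long minus short transcript measure, and Gria3 and Cacng2 (bottom) against the olfactory bulb score, with 1 point a mouse coloured by group. In the top panels replicate 1 of WT-Veh and of WT-Flx stand apart at -0.66, with the lowest Gria2 and the highest Cnih2, and in the bottom panels mice with a bulb score above 5 lie mostly low.

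Members also moved with one another. Over 16 mice, r was 0.84 between Gria2 and Gria3 and -0.85 between Gria2 and Cnih2. In the 11 mice with a bulb score of 5 or lower these values were 0.27 and 0.00018. The mice left out include both libraries low in long transcripts. The part of either measure in these patterns was not tested. Gria4 and Cnih3 behaved otherwise, with r = 0.54 over all mice and 0.82 in those 11. Gria1 and Cacng2 went opposite ways (-0.66 over all mice, -0.46 in the 11).

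For each member the genes with the most similar profile over the 16 mice were sought among 12534 genes with a mean count of at least 100. Gria2 was closest to Braf (r = 0.98), a kinase, and Herc1 (0.98), both with long transcripts (9728 and 15153 bases). Gria3 was closest to Gas7 and Mta3 (0.97 each), and Gria1 to Usp11 (0.87) and Hnrnpk (0.84). Gria4 was most like Pdha1 (0.88), a pyruvate dehydrogenase subunit, and Serpini1 (0.86). Cacng2 was nearest to Limk1 (0.94), a regulator of actin in spines, and Rims4 (0.91). Cacng3 was nearest to Nptxr (0.90), the neuronal pentraxin receptor, and Adcy2 (0.90). Cacng8 had 2010300C02Rik (0.86) and Itm2c (0.83). Cnih2 was most like the ribosomal protein genes Rps2 (0.93) and Rpl31 (0.92), whose transcripts are short (1094 and 1049 bases), and Cnih3 like Slc24a3 (0.91) and Cog7 (0.90).

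Other genes of the AMPA receptor pathway were read from lists chosen by name, 24 genes for auxiliary, assembly and extracellular partners and 25 for scaffolds and trafficking. None of the 49 passed the adjusted threshold in any of the 6 comparisons with all mice (limma). Without WT-Flx replicate 3, the WT-Flx mouse with a low bulb score, 2 of the 24 auxiliary genes passed in HT-Flx against WT-Flx. Over all genes, 23 of 16619 passed in that fit, in which every WT-Flx mouse had a high bulb score. The 2 auxiliary genes were Cacng5 (-2.17, adjusted p = 0.0475 by limma) and Shisa8 (-2.62, adjusted p = 0.0221 by limma). Both were highest in mice with a high bulb score, and Shisa8 is named here after its values were seen. At an unadjusted p below 0.05, the auxiliary list held 1, 0, 1 and 3 of 24 genes and the scaffold list 0, 0, 2 and 5 of 25 in HT-Veh against WT-Veh, HT-Flx against HT-Veh, WT-Flx against WT-Veh and HT-Flx against WT-Flx, where 4.88%, 3.07%, 4.2% and 10.4% of all genes did. Over both treatments the counts were 2 of 24 and 6 of 25 (11.9% of all genes), and in the interaction 0 and 1 (4.29% of all genes).

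Among the auxiliary genes, Gsg1l, whose product binds the receptor and damps it, was 3115 ± 315 in HT-Veh and 2435 ± 512 in WT-Veh (log2 difference 0.38, SE 0.15, adjusted p = 0.922 by limma). Without WT-Veh replicate 1, which had 1686 where the other WT-Veh mice had 2557 to 2833, its difference was 0.21 (SE 0.080). Nptx1, a secreted pentraxin that clusters receptors, was 11673 ± 2129 in HT-Flx and 8892 ± 1012 in WT-Flx (0.38, SE 0.13, adjusted p = 0.381 by limma). Its highest count of all mice was in HT-Flx replicate 2 (14189). With each mouse left out in turn, the Nptx1 difference was 0.28 to 0.46. Syndig1, a synapse differentiation protein, was 636 ± 121 in WT-Flx and 813 ± 63.5 in WT-Veh (-0.37, SE 0.14, adjusted p = 1.00 by limma), and Shisa9, also known as CKAMP44, 1968 ± 326 and 1626 ± 112. Cacng5, a further TARP, was 144 ± 24.5 in HT-Flx and 620 ± 516 in WT-Flx (-1.75, SE 0.44, adjusted p = 0.289 by limma), and its log2 difference was -0.042 (SE 0.34) with the bulb score as a covariate. The 5 mice with a bulb score above 5 had 342 to 1359 and the other 11 mice 108 to 202. Abhd6, a lipase that restrains receptor delivery, was 1166 ± 110 in HT-Flx and 1036 ± 64.9 in HT-Veh, and Vwc2l was 154 ± 29.97 and 125 ± 9.84.

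Among the scaffold and trafficking genes, Gripap1, which encodes the endosomal protein GRASP1, was 2263 ± 130 in HT-Flx and 2721 ± 162 in WT-Flx (log2 difference -0.27, SE 0.086, adjusted p = 0.364 by limma). Its groups did not overlap, as was so for 5.83% of all genes in this comparison, where genotype and bulb markers were largely confounded. Gripap1 had the lowest p of this list over both treatments (-0.18, SE 0.050, adjusted p = 0.269 by limma). The small GTPases of vesicle traffic Rab8a and Rab11a were 989 ± 154 and 2687 ± 187 in WT-Flx and 789 ± 51.4 and 2295 ± 200 in WT-Veh (0.31 and 0.23). Rab8a was 732 ± 79.5 in HT-Flx. Ppp3ca, the catalytic subunit of calcineurin, was 32785 ± 707 in HT-Veh and 30388 ± 1705 in WT-Veh. The activity-linked scaffold Homer1 was 6239 ± 2346 in HT-Flx and 4615 ± 575 in HT-Veh, and Akap5, an anchor for kinases and calcineurin, 3834 ± 1063 and 3326 ± 174. In both, HT-Flx replicate 2 was the highest of the 16 mice (9479 and 5411), and without it the log2 differences were 0.15 (SE 0.14) for Homer1, against 0.37 with all mice, and -0.0081 (SE 0.070) for Akap5, against 0.17. The pentraxin gene Nptx2, named here after its values were seen, was 6245 in that mouse and 714 to 1004 in the other 15. Adarb1, the editing enzyme named above and mentioned here after its values were seen, was 6768 ± 632 in WT-Veh, 6935 ± 567 in HT-Veh, 5833 ± 865 in WT-Flx and 6816 ± 697 in HT-Flx.

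The positions of the 9 genes in the GRCm38 annotation are as follows. Gria1 spans chr11:57011387-57330244 (plus strand), Gria2 chr3:80681450-80802835 (minus), Gria3 chrX:41400854-41678601 (plus) and Gria4 chr9:4417896-4796234 (minus). The TARP genes Cacng2, Cacng3 and Cacng8 span chr15:77991748-78120028 (minus), chr7:122670492-122769393 (plus) and chr7:3390683-3415648 (plus). Cnih2 spans chr19:5092868-5098521 (minus) and Cnih3 chr1:181352628-181460641 (plus). Of the genes that overlap them, A730060N03Rik (on the strand opposite to Cacng2) and Yif1a (opposite to Cnih2) were also in the table, and the libraries were prepared with a stranded kit.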

How the data were processed

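Sample titles gave each mouse its group and replicate number. Per the labels and the methods of the study, the authors made stranded poly-A libraries, quantified them with Salmon (1.1.0) on GRCm38 with GC bias correction, and imported and normalized them with tximport and DESeq2 (1.30.1). The deposited signal is the normalized read count per gene and mouse. The values are not whole, so the depth is unknown and no counting interval is given.

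Here, limma (3.58.1, R 4.3.3; lmFit and eBayes with trend) was fitted to log2(count + 1) for genes that reached 10 in 4 or more samples of the fit, in place of the count test of the authors. P-values were two-sided, adjusted over all genes tested by Benjamini-Hochberg, with a threshold of 0.05. A log2 difference on this scale understates that of low genes. Fits were tested on simulated data with independent noise for each gene and changes larger than those of the members. The simulated data held no bulb or transcript length differences between libraries, so recovery of small differences in such libraries was not tested. Single members were compared by exact permutation of log2 values. Lengths and positions came from GENCODE M21 and sequences from its GRCm38 transcripts. The principal transcript is 1 annotated transcript a gene.

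Named genes were the 9 members, Arid1b, the 2 genes with the lowest p in each pathway list and comparison, and the 2 genes most like each member. The members and lists were chosen with earlier results of these data known. Alternatives were other pseudocounts (0.1, 8), filters (none, a mean of at least 100), scalings (upper quartile, quantile), all 4 groups in 1 fit, the replicate number as a block, the bulb score as a covariate, and leaving out mice.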

Additional observations from a re-analysis of the deposited data

Results flagged for a closer look

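In groups of 4 mice, a value was picked out when its gap to the nearest other mouse took most of the range of the group. Of 40 groups examined (the 9 members and Arid1b in 4 groups each), 3 held such a mouse, and chance picks about 1 in 20.

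Gria2 in WT-Veh replicate 1 was 13513, where the nearest WT-Veh mouse had 21074. Cnih3 in WT-Flx replicate 1 was 2241, where the nearest WT-Flx mouse had 1626. Both mice had the lowest long minus short transcript measure (-0.66) and bulb scores of 9.02 and 6.87. The part of these measures in the values was not tested.

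Arid1b in HT-Flx replicate 4 was 1545, where the nearest HT-Flx mouse had 1661. The range of that group was narrow.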

How the results depend on the processing

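No alternative brought any of the 9 genes past the adjusted threshold. Few genes of any kind passed, at most 23 in any fit. Of the scaffold list none passed either, but 2 of the 24 auxiliary genes did in HT-Flx against WT-Flx without WT-Flx replicate 3 (limma). In that fit 23 of all 16619 genes passed. Of 891 recomputed differences of single members, 786 kept their sign and 105 did not, and the smallest adjusted p was 0.167 (limma, Gria1 in HT-Veh against WT-Veh without mice of bulb score above 5). The filters, the fit of all 4 groups and the replicate block leave each difference of group means as it is, so their 198 values are not counted here. The 891 do include 54 for each other pseudocount (0.1 and 8), which hardly moves differences at these counts, and 0 of those changed sign. With each mouse left out in turn, the median log2 difference of the members was 0.029 to 0.14 in HT-Veh against WT-Veh, -0.028 to 0.033 in HT-Flx against HT-Veh, -0.030 to 0.019 in WT-Flx against WT-Veh, 0.074 to 0.12 in HT-Flx against WT-Flx, 0.021 to 0.077 over both treatments and -0.048 to 0.022 in the interaction.

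The replicate numbers belong to different mice. The correlation of their deviations between same-numbered mice ran from -0.23 to 0.31. It was over 0.1 in 3 of 4 pairs of WT-Flx with WT-Veh (the fourth -0.20) and in 1 of 4 in each other comparison of 2 groups, so in none did every pair pass 0.1, and the numbers were not taken to pair the mice. With the replicate number as a block, 0 of 9 members were called in each comparison. Over all genes, 8 of 17567 were called over both treatments, 5 of 16788 in HT-Flx against WT-Flx and 0 in the other comparisons.

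The log2 differences that changed sign were as follows. With the bulb score as a covariate they were Cnih2 0.020 in HT-Veh against WT-Veh, Gria3 -0.026, Cnih2 0.053, Gria2 -0.024 and Cacng3 -0.074 in HT-Flx against HT-Veh, Cnih2 -0.095 and Gria2 0.12 in WT-Flx against WT-Veh, Gria1 0.16, Cnih2 0.064 and Gria4 0.026 in HT-Flx against WT-Flx, Cacng2 -0.080 and Cnih2 0.078 over both treatments, Cnih2 0.15, Gria2 -0.17 and Cacng8 0.071 in the interaction. Without mice of bulb score above 5 they were Cnih2 0.041 and Gria2 -0.00074 in HT-Veh against WT-Veh, Gria3 -0.027, Cnih2 0.061, Gria2 -0.025 and Cacng3 -0.061 in HT-Flx against HT-Veh. With upper quartile rescaling they were Gria3 -0.0025 and Gria4 -0.012 in HT-Flx against HT-Veh, Gria1 -0.0071 over both treatments. With quantile normalization they were Gria3 -0.0085 and Gria4 -0.016 in HT-Flx against HT-Veh, Gria1 -0.050 over both treatments. Without replicate 1 of both WT groups, an alternative chosen after seeing the data, they were Gria3 -0.039, Gria4 0.011, Cnih3 -0.016 and Cacng3 -0.089 in WT-Flx against WT-Veh, Cacng2 -0.0062, Cnih2 0.089 and Gria2 -0.023 over both treatments, Gria3 0.058, Gria4 -0.0024, Cacng8 0.020 and Cacng3 0.13 in the interaction. With each mouse left out in turn, the differences that changed sign at least once ranged as follows. In HT-Veh against WT-Veh they were Cnih2 -0.083 to 0.10 and Gria2 -0.053 to 0.18. In HT-Flx against HT-Veh they were Gria3 -0.027 to 0.051, Akap5 -0.0081 to 0.26, Cnih2 -0.064 to 0.061, Gria4 -0.050 to 0.056, Cnih3 -0.16 to 0.025, Gria2 -0.025 to 0.058 and Cacng3 -0.061 to 0.12. In WT-Flx against WT-Veh they were Gria3 -0.076 to 0.087, Cnih2 -0.088 to 0.13, Cnih3 -0.054 to 0.12, Gria2 -0.21 to 0.14 and Cacng3 -0.038 to 0.14. In HT-Flx against WT-Flx they were Cnih2 -0.10 to 0.074 and Gria4 -0.094 to 0.012. Over both treatments they were Cacng2 -0.00061 to 0.077, Gria1 -0.025 to 0.048 and Cnih2 -0.056 to 0.030. In the interaction they were Gria3 -0.068 to 0.095, Cnih2 -0.14 to 0.087, Gria4 -0.00017 to 0.11, Gria2 -0.11 to 0.24, Cacng8 -0.074 to 0.078 and Cacng3 -0.13 to 0.080. The cause was not tested.

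Not run were the fits without mice of bulb score above 5 for the comparisons that use WT-Flx, where it keeps 1 mouse. The depth is unknown, so what it limits cannot be stated.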
